A study of Mus musculus with 4 samples.

Results

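The genes described here encode the subunits, activators, assembly factors and main transcription factor of the proteasome, examined for propionylation of histone H3 at lysine 23 (H3K23pr) in mouse liver. They were chosen by symbol alone, as autosomal protein-coding genes of the GRCm38 RefSeq table named Psma, Psmb, Psmc, Psmd, Psme, Psmf or Psmg plus a number, together with Adrm1, Sem1, Pomp and Nfe2l1. The rule gave 51 of 20661 autosomal protein-coding genes, of which 19 encode the core, 10 the base, 9 the lid, 5 the activators and an inhibitor, 7 the assembly factors and 1 the transcription factor. Psmd10 met the symbol rule but lies on the X chromosome and was left out.

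The study mapped H3K23pr by chromatin immunoprecipitation sequencing (ChIP-seq) in liver of male C57BL/6 mice. The group called WT carried RPN11 flox/flox, and the group called KO carried a hepatocyte-specific knockout of RPN11. Each genotype had 1 immunoprecipitate (IP) and 1 input, so no difference below has a replicate check and no p-value was computed between genotypes. The antibody was the same in both IPs; the mice's age, diet and number and the Cre driver are not given in the sources used here. The floxed part remains intact in liver cells other than hepatocytes. The WT IP had 13615838 fragments with a mean size of 97 bp once duplicates were filtered, and the KO IP 15468265 with a mean size of 71 bp. The part of this size difference in the counts below was not tested. The authors' lists held 54397 peaks in WT and 41907 in KO, a KO to WT ratio of 0.770, and the median peak had 5 IP fragments at its summit in both.

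The proteasome degrades proteins that carry ubiquitin chains. Its barrel-shaped core holds the proteolytic sites on beta subunits behind gates formed by alpha subunits, and a cap made of a base and a lid recognises, unfolds and admits substrates. RPN11, the product of Psmd14, is the lid subunit that cuts ubiquitin chains from substrates as they enter. Histone propionylation uses propionyl-CoA and is known as a mark of active chromatin.

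A peak was assigned to a gene when it overlapped the span from 5 kb below the gene start to 5 kb above the gene end. Proteasome genes carried peaks about as often as other genes. In WT, 24 of the 51 had at least 1 peak (47.1%, exact binomial 95% interval 32.9 to 61.5), beside 49.4% of all autosomal protein-coding genes. In KO, 16 of 51 had at least 1 (31.4%, 19.1 to 45.9), beside 34.3% of all genes. Peaks of both genotypes were found at 13 members (25.5%, beside 25.2% of all genes), WT peaks alone at 11 (21.6%, beside 24.2%) and KO peaks alone at 3 (5.88%, beside 9.07%). The other 24 had no peak in either list (47.1%, beside 41.5%). For each of these counts, the share over all genes lay within the interval of the members' share.

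The share of genes with a peak rose with window length. The median gene length was 12.4 kb in the members and 17.5 kb over all genes. Among windows under 20 kb, 6 of 21 members had a WT peak (28.6%, beside 23.2% of all genes in that class) and 3 had a KO peak (14.3%, beside 12.1%). Among windows of 20 to 40 kb, 10 of 22 had a WT peak (45.5%, beside 43.2%) and 6 a KO peak (27.3%, beside 25.7%). All 8 members with windows of 40 kb or more had a WT peak, and 7 of them a KO peak. Over all genes the WT share was 70.5% at 40 to 80 kb and 93.5% at 80 kb or more, and the KO share 49.2% and 80.6%. In the short and middle classes, which hold most proteasome genes, the members thus lay near other genes of their length.

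**Figure D1:**
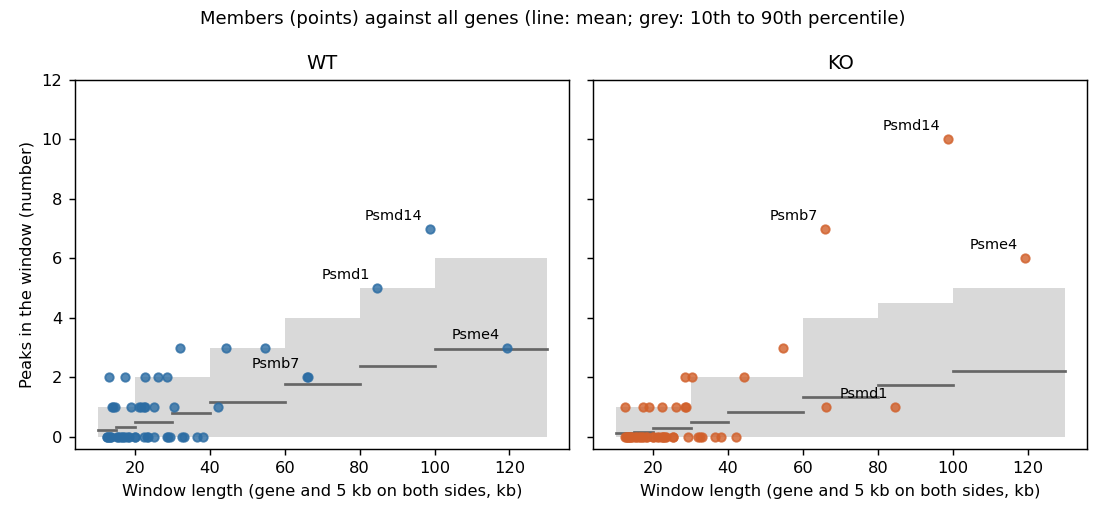
Number of H3K23pr peaks (y axis) against window length in kb (x axis) in WT (left) and KO (right). Points are the 51 members, lines the mean and grey areas the 10th to 90th percentile over all autosomal protein-coding genes. Above the grey area lie Psmd14, Psmd9, Psma4 and Psme1 in WT and Psmd14, Psmb7, Psme4, Psmd11 and Psmc2 in KO.

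Counted as distinct peaks, the member windows held 48 WT and 41 KO peaks over 1.49 Mb. That is 32.3 peaks per Mb in WT (exact Poisson 95% interval 23.8 to 42.8), beside 23.7 over all gene windows, and 27.6 per Mb in KO (19.8 to 37.4), beside 17.9. The density ratio of members to all genes was 1.36 (95% interval 1.00 to 1.80) in WT and 1.54 (1.11 to 2.09) in KO. Intervals here and below cover counting error only, not differences between animals or libraries. The KO value rested on 3 long genes, Psmd14, Psmb7 and Psme4, which held 23 of the 41 KO peaks and 12 of the 48 WT peaks. Without these genes, a choice made after their values were seen, the density was 15.0 per Mb in KO (8.87 to 23.7) and 29.9 in WT (21.0 to 41.4). The KO to WT ratio of peak numbers was 0.854 (0.549 to 1.32) over the members and 0.754 over all gene windows. Without the 3 genes it was 0.500 (0.267 to 0.904), an interval that includes the value over all gene windows.

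**Figure D2:**
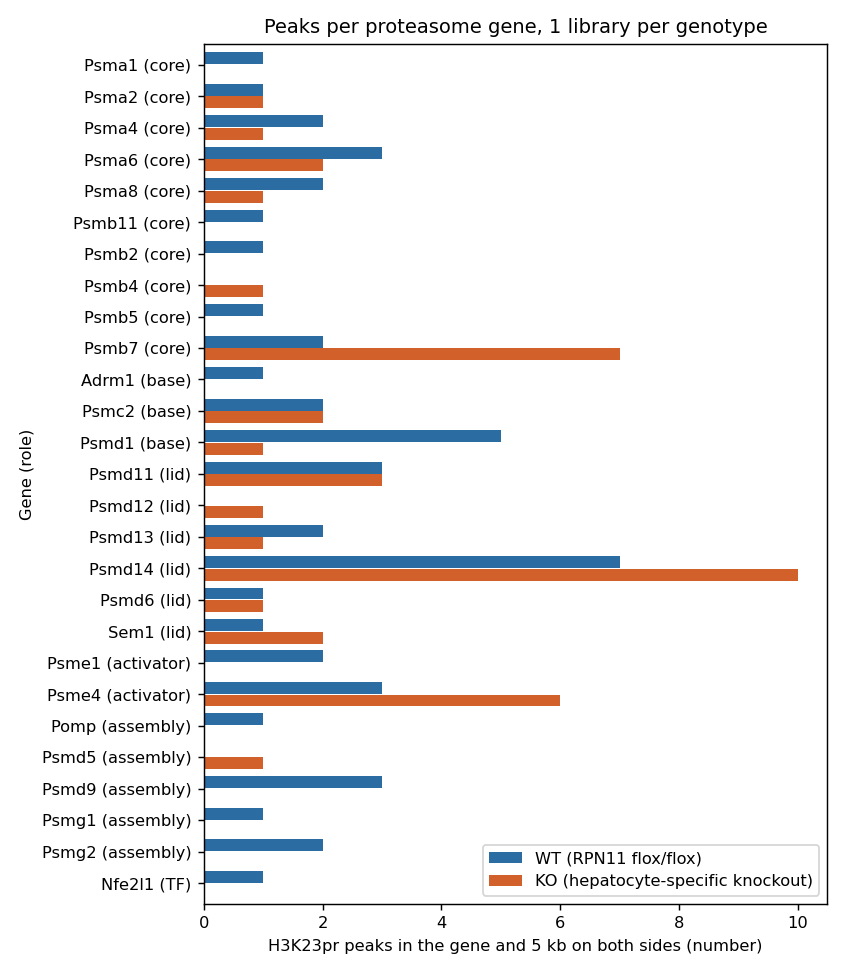
Number of WT (blue) and KO (orange) H3K23pr peaks within the gene and 5 kb on both sides (x axis) for the 27 members with a peak in either list, grouped by role (y axis). Psmd14, with 7 WT and 10 KO peaks, and Psmb7, with 2 and 7, have the most KO peaks.

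Psmd14, the gene targeted in the knockout, lies on chromosome 2 from 61711694 to 61800376 (mm10) and is read toward higher coordinates. The 250 bases before its start site, from RefSeq (GRCm38.p6), are shown because this is the gene deleted in KO hepatocytes, with a CCAAT box, read as ATTGG on this strand, in capitals.
Psmd14 (chr2:61711444-61711693, plus strand): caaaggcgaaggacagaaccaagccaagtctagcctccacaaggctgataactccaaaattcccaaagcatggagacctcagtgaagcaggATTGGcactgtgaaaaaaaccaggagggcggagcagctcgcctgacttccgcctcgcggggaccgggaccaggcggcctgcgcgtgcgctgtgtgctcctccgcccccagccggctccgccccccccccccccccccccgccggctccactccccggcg
No peak of either list touched this stretch. The nearest WT peak lay 1765 bp before the start site with 4 fragments, and the nearest KO peak 3901 bp after it with 6 fragments.

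Psmd14 had more peaks than any other member in both genotypes, 7 in WT and 10 in KO (KO to WT ratio 1.43, 95% interval 0.491 to 4.42). The interval spans equal numbers. At a caller q of 0.05 or smaller 0 of the WT and 4 of the KO peaks were left, and with at least 5 fragments 4 and 7. The q cutoff was not equal between the lists, and over all gene windows 10.8% of WT and 29.2% of KO peaks met it. In Psmd14, peaks of 6 fragments had a −log10 q of 1.07 in WT and 1.38 in KO, so only those in KO met it. WT peaks had 4 to 6 fragments at the summit and KO peaks 4 to 7. From the start site, the 6 WT peaks within the gene were centred at 3948, 6550, 19557, 39428, 50918 and 69850 bp. The 10 KO peaks were all within the gene, at 3901, 11916, 14154, 30538, 52224, 53315, 55957, 58944, 75756 and 85187 bp. Of these, 4 KO peaks fell between 52224 and 58944 bp, where the nearest WT peak, at 50918 bp, had 4 fragments. The highest KO peak of the gene was among them, at 61767601 to 61767701, with 7 fragments and a caller fold of 5.10 over the local background. Fold, p and q values of peaks are the authors'.

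The genotypes shared 1 site in Psmd14, where the WT peak spanned 61715585 to 61715699 and the KO peak 61715557 to 61715634, an overlap of 50 bp. Both summits held 6 fragments, a KO to WT ratio of 0.880 after scaling to IP fragment number (95% interval 0.235 to 3.29). That scaling leaves out the shorter fragments of the KO IP. The caller fold at the site was 4.14 in WT and 4.46 in KO. Among 1402 genes with a window within 20% of the length of that of Psmd14, the median was 2 WT peaks and 1 KO peak. At least 7 WT peaks were found in 3.35% of them and at least 10 KO peaks in 0.642%. Psmd14 thus had many low peaks in both libraries. They say nothing on whether the knockout worked, since where the loxP sites lie was not used here and non-hepatocytes keep the gene.

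**Figure D3:**
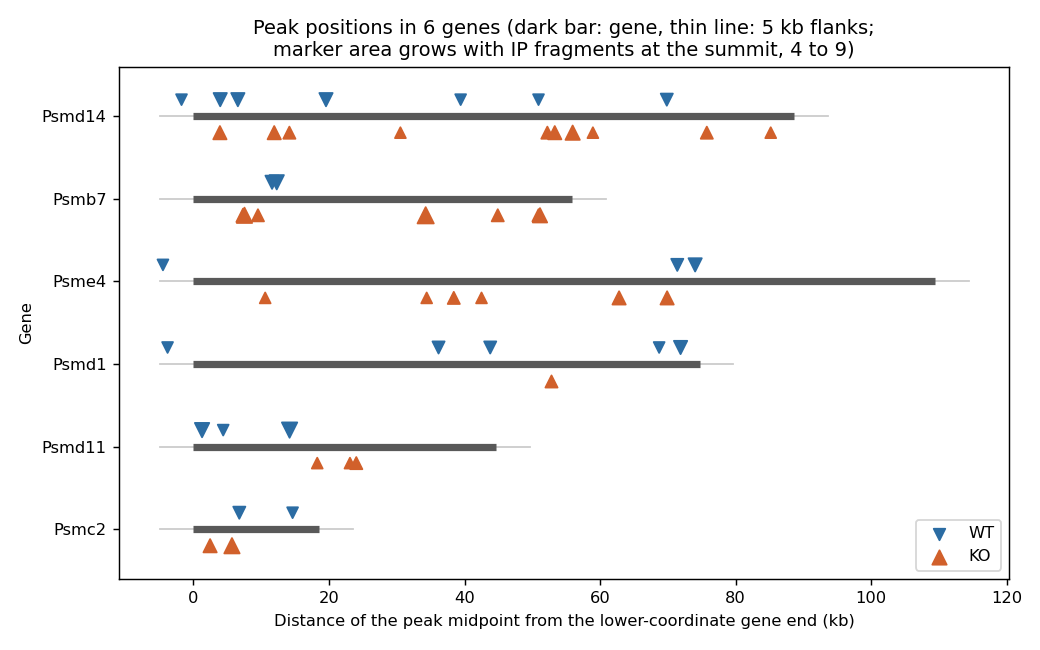
Positions of WT (blue) and KO (orange) peaks in 6 long or peak-rich members (y axis), as distance of the peak midpoint from the lower-coordinate gene end in kb (x axis); marker area grows with the IP fragments at the summit. KO peaks are spread over Psmb7 and Psmd14. The KO and WT peaks of Psmd11 do not overlap, and over all gene windows only 0.848% of WT peaks overlapped a KO peak.

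The other lid genes gave mixed counts. The lid holds RPN11, its inactive partner RPN8 (Psmd7) and scaffold subunits. Peaks of at least 1 genotype were found at 6 of the 9 lid genes, beside 58.5% of all genes, with 14 WT peaks (44.4 per Mb, 95% interval 24.3 to 74.5) and 18 KO peaks (57.1 per Mb, 33.8 to 90.2). Psmd3, Psmd7 and Psmd8 had none in either list. Without Psmd14 the lid had 7 WT peaks (32.3 per Mb, 13.0 to 66.6) and 8 KO peaks (36.9 per Mb, 15.9 to 72.8).

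Psmd11, a scaffold subunit of the lid, had 3 peaks in each genotype (chromosome 11, 80428615 to 80473248). The WT peaks had 7, 4 and 8 fragments and lay 1267, 4386 and 14182 bp from the start site. The KO peaks had 4, 4 and 5 fragments and lay further in, at 18265, 23094 and 24028 bp. The closest WT and KO peaks were 3968 bp apart, so the counts were equal but the sites were not shared. Sharing was rare everywhere, at 0.848% of WT and 1.12% of KO peaks over all gene windows.

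Psmd13, another lid scaffold gene (chromosome 7, 140882394 to 140898642), had a peak close to its start in both genotypes. The WT peak lay 1098 bp and the KO peak 534 bp after the start site, with 8 fragments each, and they were 462 bp apart. The local background was 0.901 fragments at the WT peak and 1.48 at the KO peak, against lowest common values of 0.692 and 0.568, so the caller fold was 4.74 in WT and 3.63 in KO. A further WT peak with 7 fragments lay 4330 bp beyond the gene. Psmd12 had 1 KO peak, 1032 bp after its start site, with 6 fragments. Psmd6 had 1 peak of 5 fragments in WT and 1 of 4 in KO. Sem1, the smallest lid subunit, had 1 WT peak of 5 fragments beyond its end and 2 KO peaks of 6 and 4 fragments inside the gene.

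The sequences before the start sites of Psmd13 and Psmd12 are shown because their peaks were the closest to a start site among the lid genes. Capitals mark TGACNNNGC, the core of the antioxidant response element bound by Nfe2l1, which on this strand reads in reverse complement. Psmd13 holds neither motif.
Psmd13 (chr7:140882144-140882393, plus strand): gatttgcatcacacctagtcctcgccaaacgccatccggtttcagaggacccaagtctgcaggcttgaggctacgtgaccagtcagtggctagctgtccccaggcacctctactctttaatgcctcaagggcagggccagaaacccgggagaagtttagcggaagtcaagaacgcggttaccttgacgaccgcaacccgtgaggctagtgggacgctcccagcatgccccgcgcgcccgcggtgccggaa
Psmd12 (chr11:107479278-107479527, plus strand): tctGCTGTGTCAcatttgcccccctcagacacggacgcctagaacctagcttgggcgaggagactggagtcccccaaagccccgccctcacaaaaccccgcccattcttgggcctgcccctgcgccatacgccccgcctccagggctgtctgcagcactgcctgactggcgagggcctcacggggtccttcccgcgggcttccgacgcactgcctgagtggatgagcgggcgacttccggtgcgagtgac

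The core genes had 13 peaks in each genotype over 0.510 Mb (25.5 per Mb, 95% interval 13.6 to 43.6). WT peaks were found at 9 of the 19 genes and KO peaks at 6, near the 49.4% and 34.3% of all genes. The alpha subunit genes, whose products form the gate, had 9 WT and 5 KO peaks, and the beta subunit genes 4 and 8. All but 1 of the 8 KO peaks at beta genes were in Psmb7. Without Psmb7 the core had 11 WT peaks (24.8 per Mb) and 6 KO peaks (13.5 per Mb, 4.96 to 29.4). The genes of the immunoproteasome subunits Psmb8, Psmb9 and Psmb10, which replace catalytic subunits in immune cells and under interferon, had no peak in either list. Their windows were short, at 12.7 to 15.3 kb. Among all genes with windows under 20 kb, only 23.2% had a WT peak and 12.1% a KO peak, so having none was common at this length.

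Psmb7, which encodes the catalytic beta2 subunit with trypsin-like activity (chromosome 2, 38588046 to 38643952), had 2 WT and 7 KO peaks, all inside the gene. The WT peaks had 6 and 7 fragments, and the KO peaks had 6, 8, 5, 9, 5, 5 and 7 in the order of their position. No WT peak overlapped a KO peak, and the closest were 1977 bp apart. The highest KO peak, at 38622267 to 38622355, had 9 fragments, a caller fold of 6.03 and a −log10 q of 3.65. The KO peaks had 5 to 9 fragments, so some were higher and some lower than the WT peaks of 6 and 7. These heights are not scaled to library size. The KO IP had more fragments, but they were shorter, with a mean of 71 bp against 97 bp in WT. Its lowest common background was 0.568 fragments, against 0.692 in WT. The KO to WT ratio of peak numbers, 3.50, had an interval of 0.666 to 34.5, which spans equal numbers. Among 1933 genes of like window length the median was 1 peak in both lists, and at least 7 KO peaks were found in 0.931% of them. At least 2 WT peaks were found in 46.2%.

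Psma4, an alpha subunit gene (chromosome 9, 54950781 to 54958034), held the other site shared by the genotypes. It lay in the flank before the gene, inside the neighbouring gene Hykk. The WT peak spanned 54948620 to 54948935 and the KO peak 54948671 to 54948744. Both peaks had 7 fragments. Scaled to IP fragment number alone, KO had 0.880 times the WT number (95% interval 0.263 to 2.94). The KO peak lay wholly within the WT peak, but the summits were 227 bp apart. The caller fold was 4.73 in WT and 3.87 in KO, with a local background of 0.692 and 1.07 fragments. The sequence before the start site of Psma4 is shown because this shared site lay closer to a start site than the one in Psmd14. It holds neither motif searched.
Psma4 (chr9:54950609-54950858, plus strand): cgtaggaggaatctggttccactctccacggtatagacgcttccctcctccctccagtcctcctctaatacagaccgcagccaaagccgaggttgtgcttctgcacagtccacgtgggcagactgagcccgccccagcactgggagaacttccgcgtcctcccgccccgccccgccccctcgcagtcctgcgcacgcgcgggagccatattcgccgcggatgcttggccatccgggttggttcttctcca

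Overlap of WT and KO peaks was rare at proteasome genes, as over all genes. Of the 48 WT peaks in member windows, 2 overlapped a KO peak (4.17%), beside 0.848% of the WT peaks in all gene windows. Of the 41 KO peaks the same 2 sites made 4.88%, beside 1.12%. With 2 sites, nothing can be read from the difference in share. In the 11 other genes with peaks in both lists, the closest WT and KO peaks were 462 to 14640 bp apart.

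Psmb4, a beta subunit gene without proteolytic activity (chromosome 3, 94884324 to 94886958), had no WT peak and 1 KO peak with 9 fragments and a fold of 5.85. It lay 4253 bp outside the gene, on the side of the start site. Psmb5, whose product has chymotrypsin-like activity, and Psmb11, a beta subunit of the thymus, are neighbours on chromosome 14 and shared 1 WT peak of 7 fragments between them (54622847 to 54622984). Psma6 had 3 WT peaks of 4 to 5 fragments and 2 KO peaks of 5 fragments. Psma8, a core gene of the testis, had 2 WT peaks and 1 KO peak, and Psma2 had 1 of each. Psma1 and Psmb2 had 1 WT peak each. Psma3, Psma5, Psma7, Psmb1, Psmb3 and Psmb6 had none.

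The base genes had 8 WT peaks (29.3 per Mb, 95% interval 12.6 to 57.7) and 3 KO peaks (11 per Mb, 2.26 to 32.1). The base is the motor of the cap. Its ring of 6 ATPases, encoded by Psmc1 to Psmc6, unfolds substrates, and 5 of these genes had no peak in either list, beside 41.5% of all genes. Their windows were short, at 15.4 to 29.3 kb for the 6 genes. The exception was Psmc2 (chromosome 5, 21785275 to 21803787), with WT peaks of 5 and 4 fragments and KO peaks of 6 and 8. The KO peak of 8 fragments had a fold of 5.08, and no WT peak overlapped a KO peak.

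Psmd1, a large scaffold subunit of the base (chromosome 1, 86064619 to 86139295), showed the opposite order to Psmb7. It had 5 WT peaks, with 4, 5, 5, 4 and 6 fragments, and 1 KO peak with 5. The KO to WT ratio was 0.200 (95% interval 0.00423 to 1.79), which includes equal numbers. A pair of the WT peaks, the 2 with 5 fragments, also lay within Htr2b, a serotonin receptor gene inside this span. Among 1573 genes of like window length, at least 5 WT peaks were found in 9.47% and at least 1 KO peak in 64.8%. Adrm1, which encodes the ubiquitin receptor RPN13, had 1 WT peak of 4 fragments in its flank, within the neighbouring gene Lama5. The ubiquitin receptor gene Psmd4 and the scaffold gene Psmd2 had none.

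The activator and inhibitor genes had 5 WT peaks (25.3 per Mb, 95% interval 8.22 to 59.1) and 6 KO peaks (30.4 per Mb, 11.2 to 66.1). All 6 KO peaks were in Psme4, which encodes the nuclear activator PA200 (chromosome 11, 30771775 to 30881150). They had 4, 4, 5, 4, 6 and 6 fragments, and all lay inside the gene. The 3 WT peaks of Psme4 had 4, 5 and 6 fragments, the first of them before the gene. At its length, 6 or more KO peaks were found in 10.5% of 1181 genes and 3 or more WT peaks in 56.3%. Psme1, a subunit of the interferon-induced activator PA28, had WT peaks of 7 and 5 fragments just beyond its end, 240 and 615 bp away, which also lay within the neighbouring gene Emc9. Psme2, the partner subunit of Psme1, had no peak, nor did Psme3 or the inhibitor gene Psmf1.

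The assembly factor genes had 7 WT peaks (41.6 per Mb, 95% interval 16.7 to 85.8) and 1 KO peak (5.95 per Mb, 0.151 to 33.1). These factors hold core or base subunits together until the particle is complete. Psmd9, a chaperone of the base (chromosome 5, 123228190 to 123250126), had 3 WT peaks and no KO peak. They had 8, 8 and 5 fragments. The first lay 1005 bp after the start site, and the others 1350 and 3668 bp beyond the gene, the last of them inside the neighbouring gene Wdr66. At this window length, 3 or more WT peaks were found in 4.71% of 3503 genes, and the median was 0 in both lists. The sequence before the start site of Psmd9 is shown because a WT peak of 8 fragments lies close to it, with the TGACNNNGC match in capitals.
Psmd9 (chr5:123227940-123228189, plus strand): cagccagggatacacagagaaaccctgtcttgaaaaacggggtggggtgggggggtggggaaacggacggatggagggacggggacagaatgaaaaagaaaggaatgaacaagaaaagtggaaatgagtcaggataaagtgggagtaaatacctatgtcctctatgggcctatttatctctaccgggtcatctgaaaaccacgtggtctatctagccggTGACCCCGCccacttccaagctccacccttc

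Pomp, the maturation factor of the core, had 1 WT peak of 7 fragments, where the local background of 1.45 fragments gave a fold of 3.26. Psmg2 had 2 WT peaks of 6 and 4 fragments and Psmg1 had 1 of 4, while Psmg3 and Psmg4 had none. The only KO peak of the group was in Psmd5, a chaperone of the base, with 6 fragments. The KO to WT ratio of the group, 0.143, had an interval of 0.00317 to 1.11. Nfe2l1, the transcription factor that raises proteasome gene expression when the proteasome is inhibited, had 1 WT peak of 4 fragments, 4778 bp outside the gene, and no KO peak.

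Between groups, the lid in KO had a higher density than the core and the base by more than counting error. The intervals are not adjusted for the 10 density ratios computed per genotype. The lid to core density ratio was 2.24 (95% interval 1.04 to 4.97) in KO and 1.74 (0.759 to 4.02) in WT. The lid to base ratio was 5.20 (1.52 to 27.6) in KO and 1.52 (0.594 to 4.17) in WT. Without Psmd14 both KO intervals included 1, at 1.45 (0.521 to 3.77) and 3.37 (0.808 to 19.7). With Psmb7 left out of the core, the KO lid to core ratio was 4.22 (1.61 to 13.0), and with both genes left out 2.73 (0.832 to 9.56). Leaving these genes out was a choice made after their values were seen. For base, activator and assembly genes against the core, the interval included 1 in both genotypes. Within each group of more than 1 gene, the interval of the KO to WT ratio of peak numbers included 1. It also included 0.754, the ratio over all gene windows. The ratio was 1.00 for the core, 0.375 for the base, 1.29 for the lid, 1.2 for the activators and inhibitor and 0.143 for assembly. Scaled to the sizes of the full lists, these ratios were 1.30, 0.487, 1.67, 1.56 and 0.185 in the same order, and each interval included 1.

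**Figure D4:**
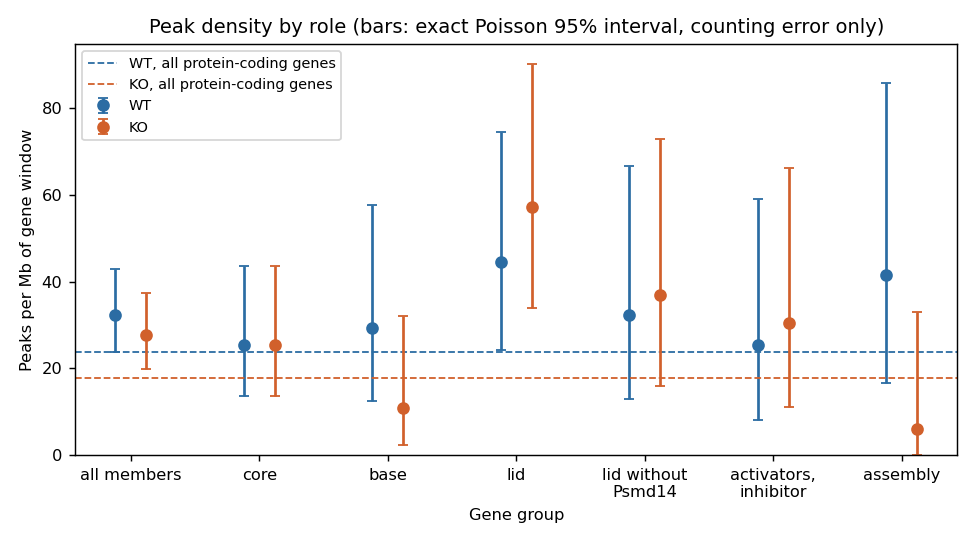
Peaks per Mb of gene window (y axis) by role (x axis) in WT (blue) and KO (orange); bars are exact Poisson 95% intervals of counting error and dashed lines the densities over all autosomal protein-coding gene windows. The lid in KO stands highest, at 57.1 per Mb, and comes down to 36.9 without Psmd14.

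Peaks of proteasome genes did not lie on the start sites. The RefSeq promoter table matched 43 of the 51 members with 50 start sites, and 0 of these 50 stretches, from 250 bp before to 50 bp after the start, held a peak in either list. Over all 20084 such stretches, 0.463% held a WT peak and 0.194% a KO peak, so a count of 0 in 50 is near the background. By position, 33 WT peaks overlapped the gene body of a member and 15 lay only in the flanks. In KO, 37 overlapped the body and 4 the flanks. KO density in the flanks was 7.95 per Mb (95% interval 2.17 to 20.4), and in the bodies 37.6 per Mb (26.5 to 51.9). In WT these values were 29.8 (16.7 to 49.2) and 33.6 (23.1 to 47.1). All 23 KO peaks of Psmd14, Psmb7 and Psme4 were in the bodies. Without these genes the KO densities were 8.45 per Mb in flanks (2.30 to 21.6) and 19.2 in bodies (10.5 to 32.2), intervals that overlap. Over all genes, KO peaks were at 14.3 per Mb in flanks and 18.4 in bodies, and WT peaks at 22.5 and 23.9. Of the distinct peaks, 8 in WT and 2 in KO also lay inside another protein-coding gene and cannot be assigned to the member alone. The table gives no exons, so peaks were not placed in exons or introns.

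The 5 kb flanks added members to both counts, since 16 had a WT peak and 13 a KO peak within the gene itself. The shares of 49.4% and 34.3% over all genes include the flanks. They are therefore not the background for these counts, which were not compared with other genes. Just inside the limit were the WT peaks of Nfe2l1 and of Psmb5, 4778 and 4852 bp from the gene with 4 and 7 fragments. Just outside was a WT peak of 5 fragments, 5024 bp from Psmb2.

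The TGACNNNGC motif, searched on both strands in the 250 bases before each start site, was found in 6 of 50 member stretches (12.0%), beside 10.6% of 20084. They belong to Adrm1, Psmb5, Psmb6, Psmc6, Psmd12 and Psmd9. CCAAT was found in 18 (36.0%), beside 35.3%. Median GC content of these stretches was 58.4% in members and 56.0% over all. On these measures the stretches before proteasome genes were close to those of other genes, and a match is a description of letters, not of binding.

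Member peaks were low, like those of all genes. Summits held 4 to 8 fragments in WT and 4 to 9 in KO, with a median of 5 in both. At 6 or more fragments were 19 of 48 WT peaks (39.6%, beside 37.3% over all gene windows) and 19 of 41 KO peaks (46.3%, beside 32.5%). At a caller q of 0.05 or smaller were 9 WT peaks (18.8%, beside 10.8%) and 16 KO peaks (39.0%, beside 29.2%). The median caller fold was 3.52 in WT and 3.83 in KO, beside 3.55 and 3.83 over all gene windows. Only 1 WT peak, in Pomp, and 1 KO peak, in Psmd13, had a background over 2 times the lowest common level.

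**Figure D5:**
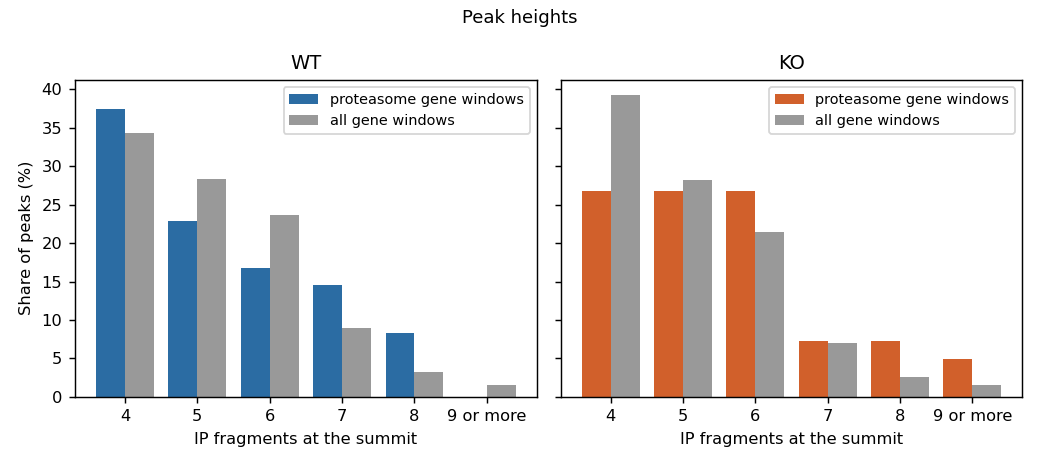
Share of peaks in percent (y axis) by IP fragments at the summit (x axis) for peaks in proteasome gene windows (coloured) and in all gene windows (grey), in WT (left) and KO (right). No member peak exceeded 8 fragments in WT, and 2 KO peaks, at Psmb4 and in Psmb7, reached 9.

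Genes that work with the proteasome also had peaks in both genotypes. Of 28 listed genes for shuttle factors, proteasome-bound ubiquitin enzymes, proteasome regulation and related functions, 27 matched the table. WT peaks were found at 15 of these (55.6%, exact binomial 95% interval 35.3 to 74.5) and KO peaks at 14 (51.9%, 31.9 to 71.3), beside the 49.4% and 34.3% of all genes. Their windows were longer, with a median of 36.1 kb against 27.5 kb over all genes. Among the 6 with windows under 20 kb, 2 had a WT peak and 0 a KO peak, beside 23.2% and 12.1% of all genes in that class. Among the 10 of 20 to 40 kb, 2 had a WT peak and 5 a KO peak, beside 43.2% and 25.7%. Among the 8 of 40 to 80 kb, 8 had a WT peak and 6 a KO peak, beside 70.5% and 49.2%. All 3 of 80 kb or more had peaks of both, beside 93.5% and 80.6%. Over 1.15 Mb they held 31 WT peaks (27.0 per Mb) and 32 KO peaks (27.9 per Mb), and 0 sites were shared. Uchl5 and Usp14, deubiquitylases that bind the cap, had 3 WT and 4 KO peaks and 3 WT and 2 KO peaks. Ecpas, a proteasome adaptor gene, had 3 and 5. Of the genes for Nfe2l1 activation, Ngly1 had 2 WT and 3 KO peaks and Ddi2 had 1 of each. Nfe2l2, a related stress factor, had 2 KO peaks and no WT peak. The segregase gene Vcp had none.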

How the data were processed

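H3K23pr ChIP-seq peaks from liver were read from 1 list per genotype, called per library. The submitters' processing notes name cutadapt 1.9.3, Bowtie2 2.2.4 and mm10. Peaks came from MACS2 2.1.1.20160309 in paired-end mode, with the genotype's input as control, a p cutoff of 0.001 and at most 2 fragments of the same ends, per the file headers. The signal deposited by the authors is the pileup, a whole number of IP fragments at the summit. The headers say that the larger dataset is scaled towards the smaller, but 100% of pileups were whole numbers, so they were read as unscaled fragments. Had they been scaled, the fragment ratios given for shared sites would differ. The fold deposited by the authors is a ratio to local background, and their p and q are −log10 values. Background was computed back from fold and pileup with a pseudocount of 1, and its lowest common value was 0.692 in WT and 0.568 in KO. Widths and positions are in bp, as deposited.

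Windows, overlaps and exact intervals (scipy 1.17.1) were computed in python 3.11.15. A site was shared at an overlap of 1 bp or more. The scripts were tested on simulated peaks. Density used merged windows, so a peak counted once. Genes named were Psmd14, those with the highest summit or most peaks of their group, those with a shared site, with 3 or more peaks, or with 7 or more fragments within 2 kb of an end, and, beyond that rule, remaining members in brief. Members and lists were chosen with earlier results of these data known.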

Additional observations from a re-analysis of the deposited data

How the results depend on the processing

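The counts were redone with other flanks, thresholds, overlap rules and left-out genes. Background above 2 times the lowest common level and the left-out genes Psmd14 and Psmb7 were chosen after seeing the data. Of 68 recomputed counts, 56 stayed within 1.5 times their reported value. At a caller q of 0.05 or smaller, 8 members had a WT peak and 9 a KO peak, with 9 WT and 16 KO peaks, 0 shared sites, and 0 WT and 4 KO peaks in Psmd14. The order of the genotypes in peak number turned at that threshold. Members with a peak were nearly level, at 8 and 9, and were not compared with other genes at that threshold. The order in peak number turned over all gene windows as well, at 2877 WT and 5858 KO peaks. That turn was thus not particular to the members. For the members, the order in peak number also turned with gene bodies alone, at 33 WT and 37 KO peaks. Over all gene bodies it did not, at 23506 WT and 18092 KO peaks. Without Psmd14, Psmb7 and Psme4, left out after their values were seen, member bodies held 23 WT and 14 KO peaks. With an equal number of strongest peaks it was nearly level, at 40 and 41. With at least 5 fragments, the members had 30 peaks in each genotype, and Psmd14 had 4 WT and 7 KO peaks. The peaks of 4 fragments dropped there were 37.5% of WT and 26.8% of KO member peaks. Over all gene windows such peaks were 34.3% in WT and 39.3% in KO. Shared sites fell from 2 to 1 within gene bodies alone, with summits within 200 bp, and without Psmd14. No paired analysis was possible because each genotype had 1 library. Summits of 4 to 9 fragments limit every count here, and depth does not show whether a gene without a peak lacks the mark.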
